A study of Mus musculus with 182 samples.

Results

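The cells described here are the 41 single blastomeres of 64-cell and 32-cell (64C and 32C) mouse embryos that are labelled female and Xist wt/ko, out of 182 single cells in the series. They were chosen by their labels alone: 25 cells at 64C and 16 cells at 32C. All came from a Cast/EiJ mother and a C57BL/6J father (the CB cross), and the deleted Xist allele is the one inherited from the father. Embryos came from natural matings without culture, and polyadenylated RNA of each cell was copied from its 3′ end, amplified and sequenced as single reads of 50 bases. Beside them stand 5 other pairs of groups of the same stages: males labelled mutant (5 cells at 64C, 4 at 32C), which carry no paternal X, wild-type CB females (6 and 9), wild-type CB males (2 and 6), and wild-type females (6 and 5) and males (6 and 6) of the BC cross, with a C57BL/6J mother and a Cast/EiJ father. Oocytes of both strains (4 C57BL/6J, 3 Cast/EiJ) served as a measure of maternal transcripts. The labels name no embryo, so cells of a stage may share one, and each stage of each pair was treated as 1 sample.

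Between these stages the mouse embryo becomes a blastocyst. Its outer cells form the trophectoderm, the epithelium that makes the placenta, and its inner cells separate into epiblast, which gives rise to the fetus, and primitive endoderm, which lines the yolk sac. In wild-type female embryos the noncoding RNA Xist is made from the paternal X and silences it in cis, a process called imprinted X inactivation. Without Xist on that chromosome the paternal X has no such signal.

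Cells at 64C held 6.17M to 12.65M counts in all (M for mega, median 8.79M) and cells at 32C 3.70M to 12.87M (median 9.52M), and 4651 to 9030 and 6621 to 8812 genes had at least 10 counts. No cells of a stage agreed within counting noise, since chi-square divided by its degrees of freedom was at least 124 in the 300 pairs at 64C and 161 in the 120 pairs at 32C. Marker lists of other cells were low in most cells. Cumulus and granulosa genes summed to a median of 0.39 CPM (counts scaled by the total of the cell) at 64C and 1.62 CPM at 32C, with highest cells of 18.3 and 41.4 CPM. Blood genes summed to medians of 0.11 and 0.54 CPM, with highest cells of 49.9 CPM (64C cell 34) and 89.0 CPM (32C cell 45), and Y-linked genes to at most 2.90 and 1.27 CPM. Fibroblast and endometrial genes summed to medians of 42.5 CPM at 64C and 38.3 CPM at 32C, with highest cells of 256 CPM (64C cell 34) and 200 CPM (32C cell 7).

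A set of cells stood apart at each stage. At 64C, cells 33 to 37 had few paternal reads on chromosomes 4 and 18. Their mean paternal share over the genes of a chromosome, where 0.5 is an equal contribution of both alleles, was 0.311 to 0.338 on chromosome 4, against 0.471 to 0.537 in the other 20 cells at 64C and 0.468 to 0.524 at 32C. On chromosome 18 it was 0.321 to 0.354, against 0.465 to 0.545 and 0.495 to 0.575. On their other autosomes the same 5 cells had 0.422 to 0.564. Chromosome 4 gave 8.87 to 9.45% of the counts of these 5 cells, against 5.90 to 7.15% in the other cells at 64C and 5.94 to 7.28% at 32C. For chromosome 18 it was 3.14 to 3.89%, against 2.04 to 2.64% and 1.91 to 2.50%. The ranges do not overlap on either chromosome, for either measure. Over genes of at least 50 CPM, the median log2 ratio of the 5 cells to the other 20 was 0.58 on chromosome 4 (252 genes), 0.74 on chromosome 18 (94 genes) and -0.05 to 0.21 on the remaining chromosomes. The low share spanned both chromosomes: windows of 20 Mb had mean shares of 0.197 to 0.366 on chromosome 4, against 0.410 to 0.543 in the other cells, and of 0.320 to 0.435 on chromosome 18, against 0.474 to 0.611. DNA copy number was not measured here.

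**Figure D1:**
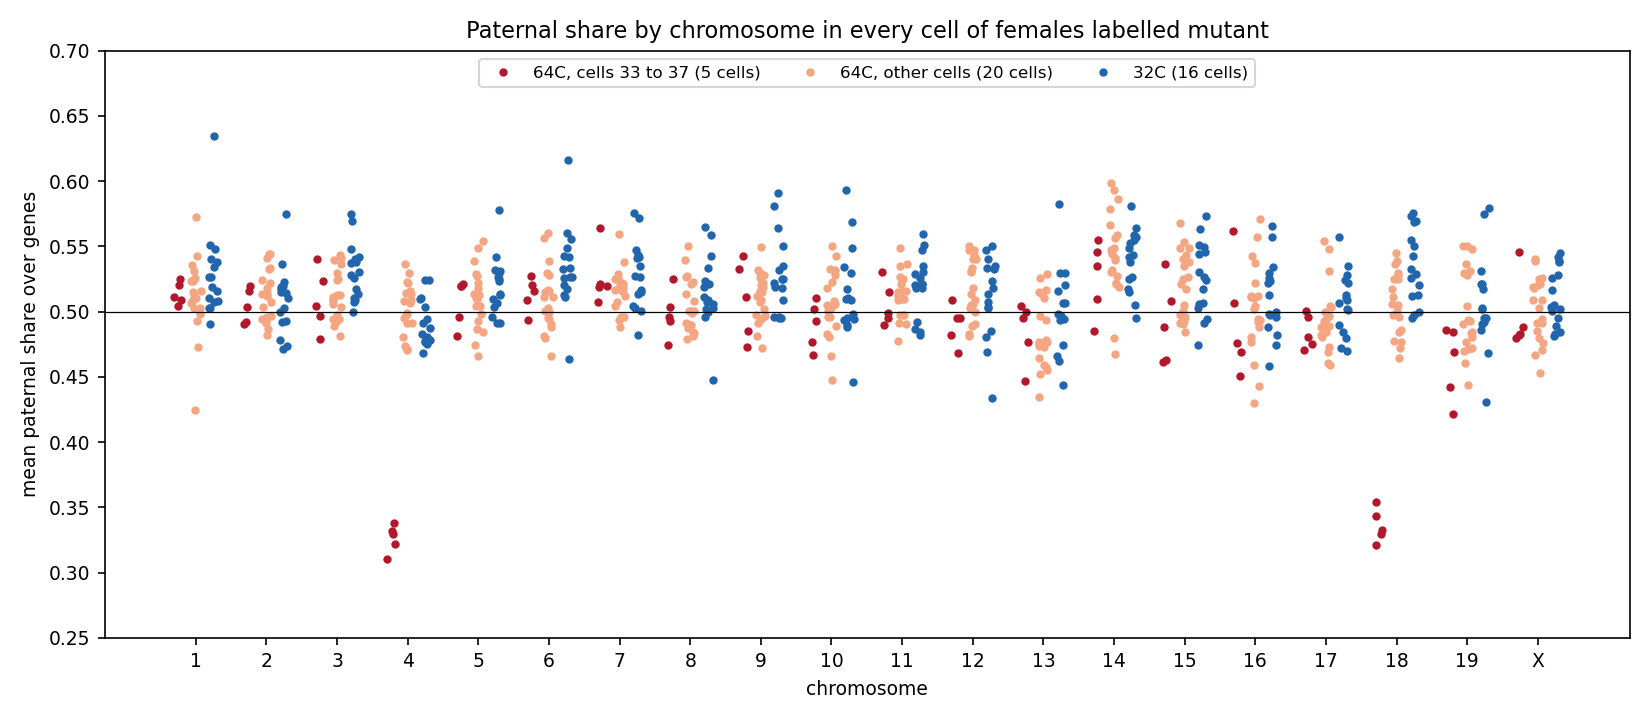
Mean paternal share over the genes of each chromosome (y axis) in every cell of females labelled mutant, with 64C cells 33 to 37 left of the other 64C cells and of the 32C cells (colours). The 5 cells lie at 0.311 to 0.338 on chromosome 4 and 0.321 to 0.354 on chromosome 18, below every other cell. On the remaining autosomes they lie at 0.422 to 0.564, and the lowest of them is below every other cell on chromosomes 3, 15 and 19.

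At 32C, cells 42 to 47 stood out by some oocyte transcripts, though not by the sum of the whole oocyte list. That sum was 2574 to 6210 CPM in these 6 cells and 2415 to 6323 CPM in the other 10 cells at 32C. Gdf9, a growth factor secreted by oocytes, had 13.1, 37.4, 152, 292, 589 and 29.6 CPM in cells 42, 43, 44, 45, 46 and 47, and at most 10.6 CPM in the other 10 cells at 32C and 9.33 CPM in any cell at 64C. Oocytes had 8022 to 20668 CPM (C57BL/6J) and 4018 to 5701 CPM (Cast/EiJ). H1foo, the oocyte linker histone, stood at 1.07 to 1.31 times the Gdf9 level in these 6 cells, against 0.813 to 1.65 times in C57BL/6J oocytes and 1.71 to 2.39 times in Cast/EiJ oocytes. The reads of Gdf9, H1foo and Bcl2l10, an apoptosis regulator of the oocyte, came almost wholly from the C57BL/6J allele, with shares of 0.995 to 1.0, although C57BL/6J was the father of these embryos. Of 7 further oocyte transcripts measured in these cells, Obox2, Oosp1, Oog3, Rfpl4 and Mos had shares of 0.984 to 1.0. Zar1 had 1.0 in cell 44 and 0.775 in cell 46, and Btg4 had 0 in cell 42 and 0.50 to 0.611 in the other 5 cells. Bcl2l10 stood at 1.08 to 1.58 times the Gdf9 level in these 6 cells, against 0.794 to 1.59 times in C57BL/6J oocytes. Btg4 and Oosp1 did not keep the proportions of those oocytes. Cell 46 had 328 CPM of Btg4 and 193 CPM of Oosp1 beside 589 CPM of Gdf9. C57BL/6J oocyte 20 had 2532 and 11197 CPM beside 10594 CPM of Gdf9. Cell 46 also had the highest autosomal paternal share of all 41 cells, 0.564. The cause of either pattern was not tested.

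No gene passed the test between the stages. With edgeR's quasi-likelihood test over all 15463 genes, 0 were higher and 0 lower at 64C in females labelled mutant, and 22 had an unadjusted p under 0.05. DESeq2 called 15 higher and 1 lower. Limma, fitted to the mean log2 values of each group, called none. The change of mutant females differed from that of the 5 other pairs for 0 genes (61 at an unadjusted p under 0.05), with DESeq2 for 15. For lack of replicates the spread came from the stage change of the 5 other pairs. The lone pair was assumed to vary like them. Groups of those pairs hold 2 to 9 cells, against 25 and 16 here, so their spread may be wider than that of this pair. A lack of edgeR calls is thus not evidence that no gene changed. Between the stages, genes called by DESeq2 had fitted log2 changes of 8.91 (Adh1) to 26.1 (Kel) where higher and -31.4 (Pde6g) where lower. Such sizes are not taken as measured ratios here. Genes are therefore described by a rule of size with no test: a log2 ratio of at least 1 in the CPM of the summed cells, a difference of at least 1 in the mean log2(CPM + 1) over cells, and at least 1 CPM in 50% of the cells of the higher stage. By this rule 269 of 10317 genes were higher at 64C (2.61%) and 490 lower (4.75%). Without both sets of cells these numbers were 379 and 677 of 10194, of which 146 and 318 were among the first 269 and 490. Every one of the 10317 genes had overlapping cell ranges at the 2 stages.

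Cells fell into 2 kinds by the keratin Krt8, which builds the filaments of the trophectoderm, and the same kinds appeared at both stages. Krt8 reached 2579 to 4876 CPM in 7 of 25 cells at 64C (28%, exact 95% binomial interval over cells 12.1 to 49.4%). In the other 18 cells it was at most 291 CPM. At 32C it reached 1429 to 2788 CPM in 4 of 16 cells (25%, interval 7.27 to 52.4%) and at most 288 CPM in the other 12. The intervals take cells as independent, although cells of a stage may share an embryo. The shares of Krt8-rich cells overlap widely between the stages. At 64C these were cells 49, 50, 51, 55, 67, 74 and 78, which also had 1556 to 6204 CPM of Krt18, its partner keratin, and 127 to 770 CPM of Gata3, a trophectoderm transcription factor. Sox2, a factor of the inner cells, was at most 0.39 CPM in these 7 cells and 0 in the 4 cells at 32C, which were cells 42, 43, 47 and 51. Cells 42, 43 and 47 belong to the set with oocyte transcripts.

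**Figure D2:**
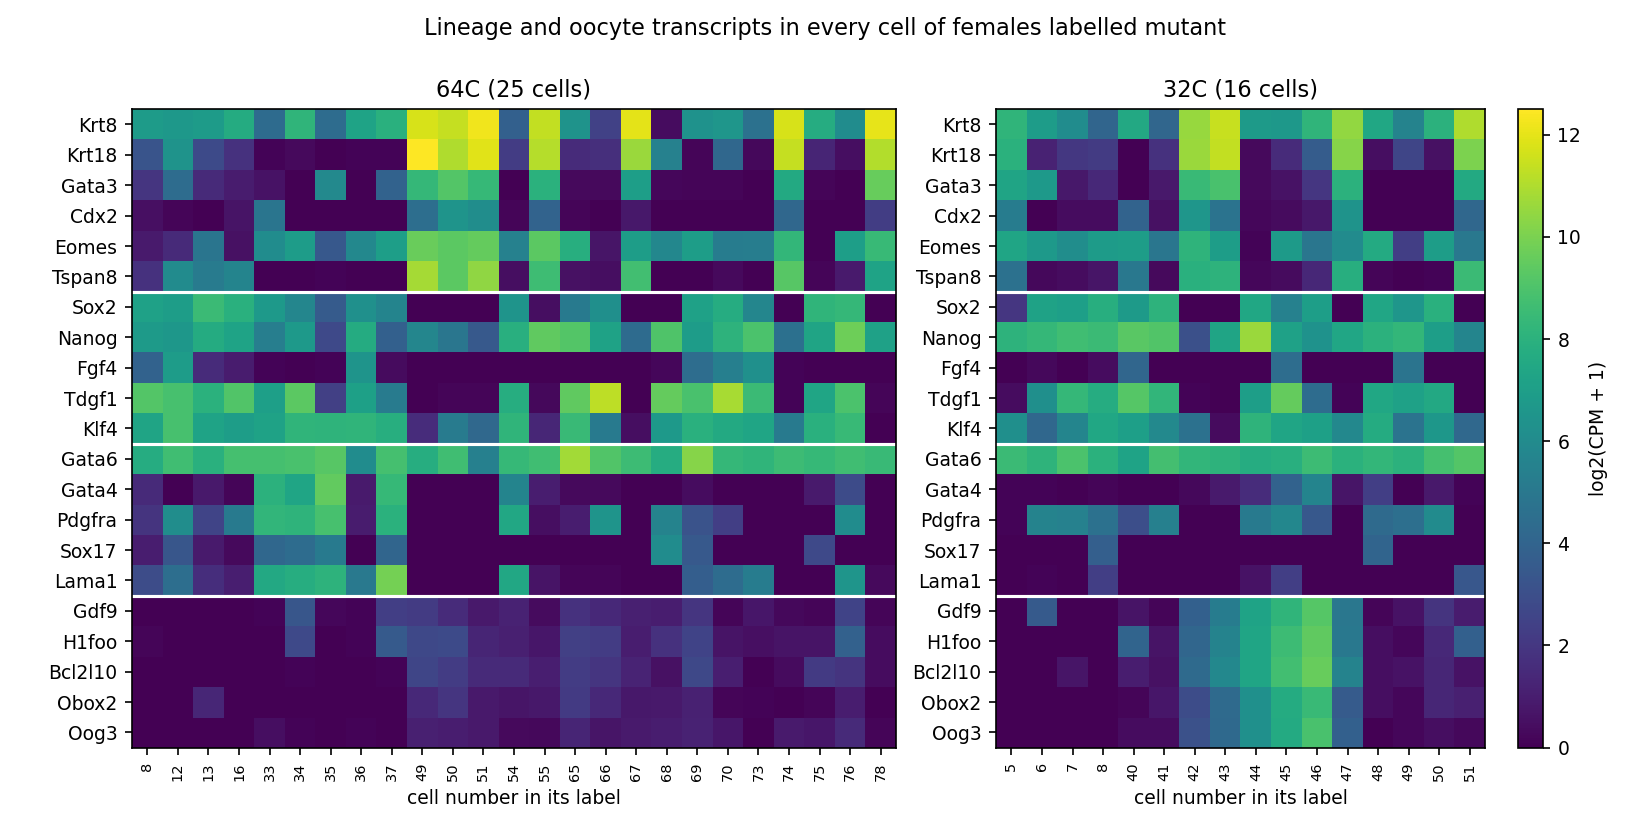
Level (log2(CPM + 1), colour) of trophectoderm, epiblast, primitive endoderm and oocyte transcripts, from top to bottom, in each of 25 cells at 64C (left) and 16 cells at 32C (right). Krt8 and Krt18 are bright in the cells without Sox2, Gata4 is highest in 64C cells 33, 34, 35 and 37, and the oocyte transcripts shown stand together in 32C cells 42 to 47.

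Trophectoderm genes as a list had a median log2 ratio of 0.03 (30 genes), against -0.07 over all 10317 genes. Tfap2c, a transcription factor of early trophoblast, and Cited1, an X-linked transcriptional coactivator, were the only 2 past the size rule, both lower. Cited1 had 3.34, 129 and 515 CPM in the lowest, median and highest cell at 64C, against 209, 359 and 1151 CPM at 32C. At 64C 16 of 25 cells lay below the lowest 32C cell, although the ranges overlap, and Cited1 was also lower without both sets of cells (164 against 434 CPM). Tfap2c (101 against 224 CPM) was not past the rule without them (130 against 168 CPM). The list depended on the cells that were kept: without both sets 7 genes were higher and 1 lower, with a median of 1.16. Leaving out both sets keeps every Krt8-rich cell of 64C but only cell 51 of those of 32C. All comparisons without both sets therefore also change the mix of cell kinds. Krt18 was 813 CPM at 64C and 500 CPM at 32C over all cells, and 1081 and 147 CPM without the 2 sets.

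Primitive endoderm genes had a median log2 ratio of 0.53 over 21 genes, and Lama1, Sparc and Aqp8 were past the rule, all higher. Without 64C cells 33 to 37 the median was -0.02 and only Sparc was past it. Gata4, a transcription factor of the primitive endoderm, was 711 CPM in cell 35, 326 in cell 37, 263 in cell 33, 160 in cell 34 and 49.3 in cell 54, and at most 6.2 CPM in the other 20 cells at 64C. At 32C it was 49.5 CPM in cell 46, 14.3 in cell 45 and at most 3.9 CPM in the others. Thus 4 of the 5 cells highest in Gata4 at 64C are cells with low paternal shares on chromosomes 4 and 18. The exception in that set is cell 36, with 87.7 CPM of the epiblast growth factor Fgf4. Pdgfra, the PDGF receptor of the primitive endoderm, was highest in the same 5 cells, at 177 to 470 CPM, against at most 88.6 CPM in other cells at 64C and 64.4 CPM at 32C.

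Lama1, the laminin chain of the early basement membrane, had the largest log2 ratio of all genes past the rule that were higher, 6.55. Its lowest, median and highest cells were 0, 2.06 and 931 CPM at 64C, against 0, 0 and 9.55 CPM at 32C. At 64C 11 of 25 cells had at least 10 CPM, and at 32C 0 of 16. Without cells 33 to 37 its level at 64C was 17.9 CPM and it was not past the rule. Sparc, a matrix glycoprotein, was 90.5 CPM at 64C and 24.5 CPM at 32C, and 62.6 and 30.3 CPM without both sets. Aqp8, a water channel, was 341 against 114 CPM, and 166 against 108 CPM without them. In the 5 other pairs the median of the list was 1.21 in males labelled mutant, 2.60 in wild-type CB females, 2.41 in wild-type CB males, 2.27 in BC females and -0.19 in BC males.

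Epiblast and pluripotency genes had a median log2 ratio of 0.04 over 25 genes, with 1 past the rule. That gene was Bex1, an X-linked adaptor gene, at 32.5 CPM at 64C and 8.43 CPM at 32C. Pou5f1, the core pluripotency factor, was found in every cell, at 61.6 to 1055 CPM at 64C and 66 to 1381 CPM at 32C. Nanog averaged 202 CPM at 64C and 354 CPM at 32C, with medians of 143 and 266 CPM and overlapping cells. Fgf4 reached 10 CPM in 6 of 25 cells at 64C (highest 118 CPM) and in 3 of 16 at 32C (highest 26.8 CPM).

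Cholesterol and fatty acid genes were the list with most members lower at 64C. Cells make cholesterol by the mevalonate pathway, whose genes are switched on together by the transcription factor SREBP2 when sterols are scarce. Of 23 listed genes 10 were past the rule and lower and 0 higher, against 4.75% lower and 2.61% higher over all genes, and the median log2 ratio was -0.88. Summed over the list, cells had 2109, 3105 and 5082 CPM at 64C (lowest, median and highest), against 3024, 5165 and 7491 CPM at 32C. The Krt8-rich cells differed less between the stages, with 2391 to 4079 CPM at 64C and 3024 to 4350 CPM at 32C. The other cells had 2109 to 5082 CPM at 64C and 3725 to 7491 CPM at 32C. No gene of the list passed edgeR's test, and none had an unadjusted p under 0.05.

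Hmgcs1, the synthase of an early step, was 57 CPM at 64C and 128 CPM at 32C. Of the later steps, Sqle, squalene epoxidase, had 0.64, 31.9 and 304 CPM at 64C, against 4.95, 191 and 525 CPM at 32C. Cyp51, the lanosterol demethylase, was 45.1 against 133 CPM, and Dhcr7, which makes the last reduction, 6.19 against 27.5 CPM. Regulators were lower too: Insig1, which holds SREBP in the endoplasmic reticulum when sterols are plentiful, was 27.1 against 106 CPM. Srebf2, the gene of SREBP2, was 38 against 76.7 CPM. Scd1 (116 against 279 CPM) and Scd2 (425 against 928 CPM) encode desaturases that make monounsaturated fatty acids. Scd2 was found in every cell, at 55.8 to 1286 CPM at 64C and 490 to 2246 CPM at 32C.

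**Figure D3:**
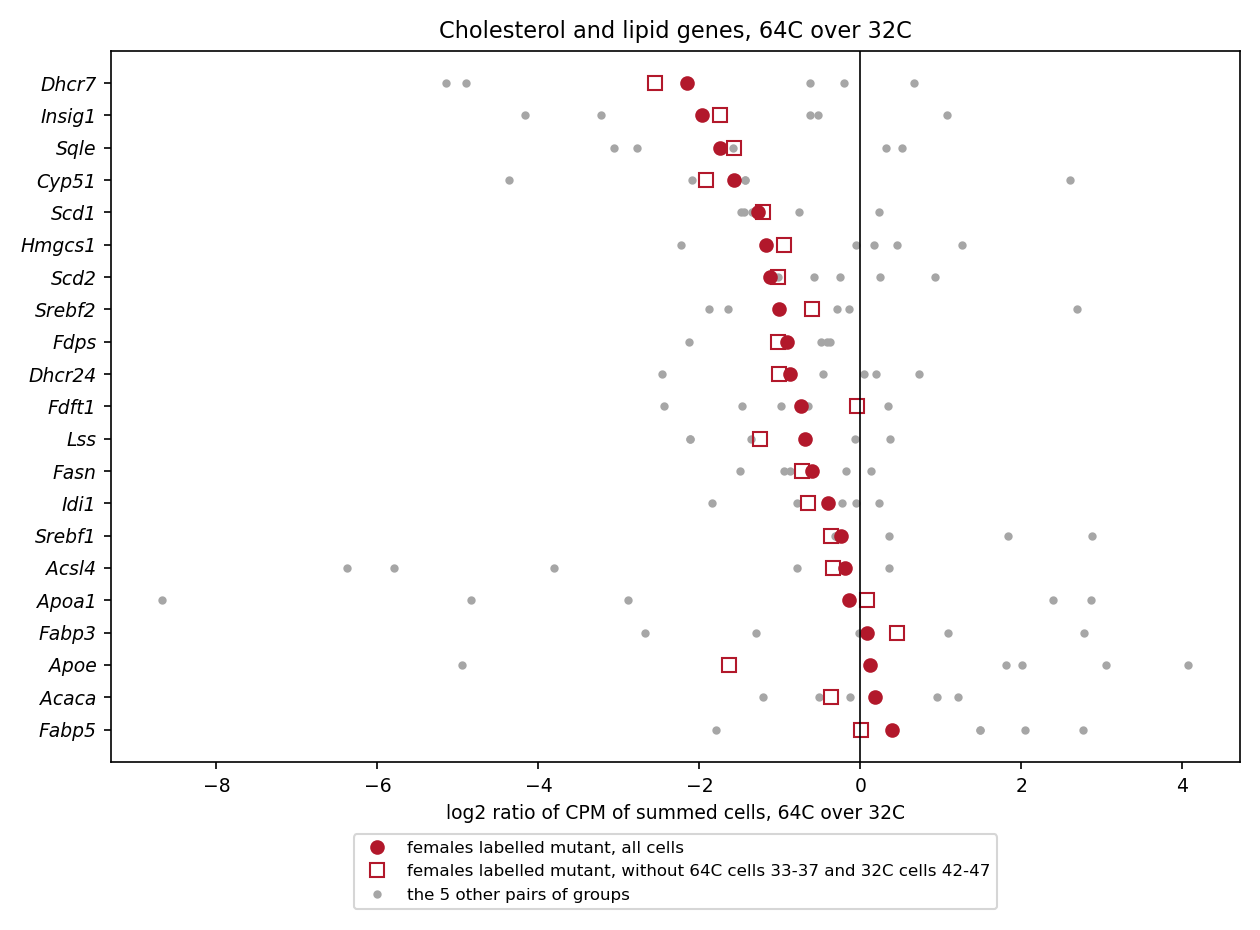
Log2 ratio of 64C over 32C in the CPM of summed cells (x axis) for 21 of the 23 cholesterol and lipid genes, in females labelled mutant with all cells (filled), without 64C cells 33 to 37 and 32C cells 42 to 47 (open squares), and in the 5 other pairs (grey). Most of the filled and open points lie left of 0, and grey points spread to both sides.

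Without both sets of cells, 10 of 23 genes were again lower and 0 higher, with a median of -0.95. Fdps, Lss and Apoe then came in, and Hmgcs1 and Srebf2 were among the genes that dropped out. In the other pairs the median of the list was -0.87 in males labelled mutant, -0.76 in wild-type CB females, -0.06 in wild-type CB males, -0.07 in BC females and -0.42 in BC males, against -0.18 to 0.06 over all genes of each pair. Msmo1, the sterol methyl oxidase, was past the rule and lower in all 6 pairs (32.4 against 95.2 CPM in mutant females).

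Promoters of the lower genes were searched for the core of the sterol regulatory element, the site of SREBP, as TCACNCCA on both strands. RefSeq promoters (250 bases before to 50 after a start, build GRCm38.p6, the same as mm10) were at hand for 14 of the 23 genes and 5 of the 10 lower ones. The motif lay in Hmgcs1 and Srebf2 of these 5, in 3 of the 20 promoters of the list (15%) and in 4.36% of all 32851 promoters. The remaining promoter was that of Apoe, which was not past the rule with all cells. Counts this small do not set the list apart from all promoters. The 2 sites of genes lower at 64C are shown with the motif in capitals, at chr13:119690203-119690232 (plus strand, motif 137 bases before the start of Hmgcs1) and chr15:82147096-82147125 (plus strand, 162 bases before the start of Srebf2).
Hmgcs1: acgtcaccgtcTCACCCCActtcccaggtc
Srebf2: atgacgcaccaTCACCCCAtgagccgcttc
A match is a description of these letters and not a measured binding site.

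Of 33 cell-cycle genes, Rrm2 and Ccne1 were lower at 64C and Plk1 and Aurka higher, where 4.75% of all genes were lower and 2.61% higher, so counts this small say little about the list. Its median log2 ratio was 0.22. Rrm2, the ribonucleotide reductase subunit that supplies deoxynucleotides in S phase, had 47.7, 241 and 436 CPM at 64C (lowest, median and highest cell), against 415, 544 and 775 CPM at 32C. A single 64C cell, cell 65, lay above the lowest 32C cell. It was 231 CPM over all 64C cells and 578 CPM over all 32C cells (edgeR log2 change -1.27, unadjusted p = 0.051, adjusted p = 1).

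Ccne1, the cyclin that drives entry into S phase, had 0, 21.7 and 93.5 CPM at 64C, against 0.76, 137 and 740 CPM at 32C. At 32C 13 of 16 cells had at least 50 CPM, and at 64C 6 of 25. Its edgeR log2 change was -2.55 (SE 1.08, unadjusted p = 0.04, adjusted p = 1). On the other side, the mitotic kinase Plk1 had 1.15, 226 and 852 CPM at 64C, against 0, 41.5 and 347 CPM at 32C. Aurka, the kinase of the spindle poles, had 20, 381 and 858 CPM at 64C, against 55.8, 150 and 279 CPM at 32C. For Aurka 16 of 25 cells at 64C exceeded the highest 32C cell. Ccnb1, the mitotic cyclin (527 against 453 CPM), and Ccna2, the cyclin of S and G2 phase (189 against 185 CPM), stood close together at both stages. All 4 were past the rule without both sets of cells too, with Plk1 at 271 against 42.3 CPM, and the list then had 4 higher and 2 lower.

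**Figure D4:**
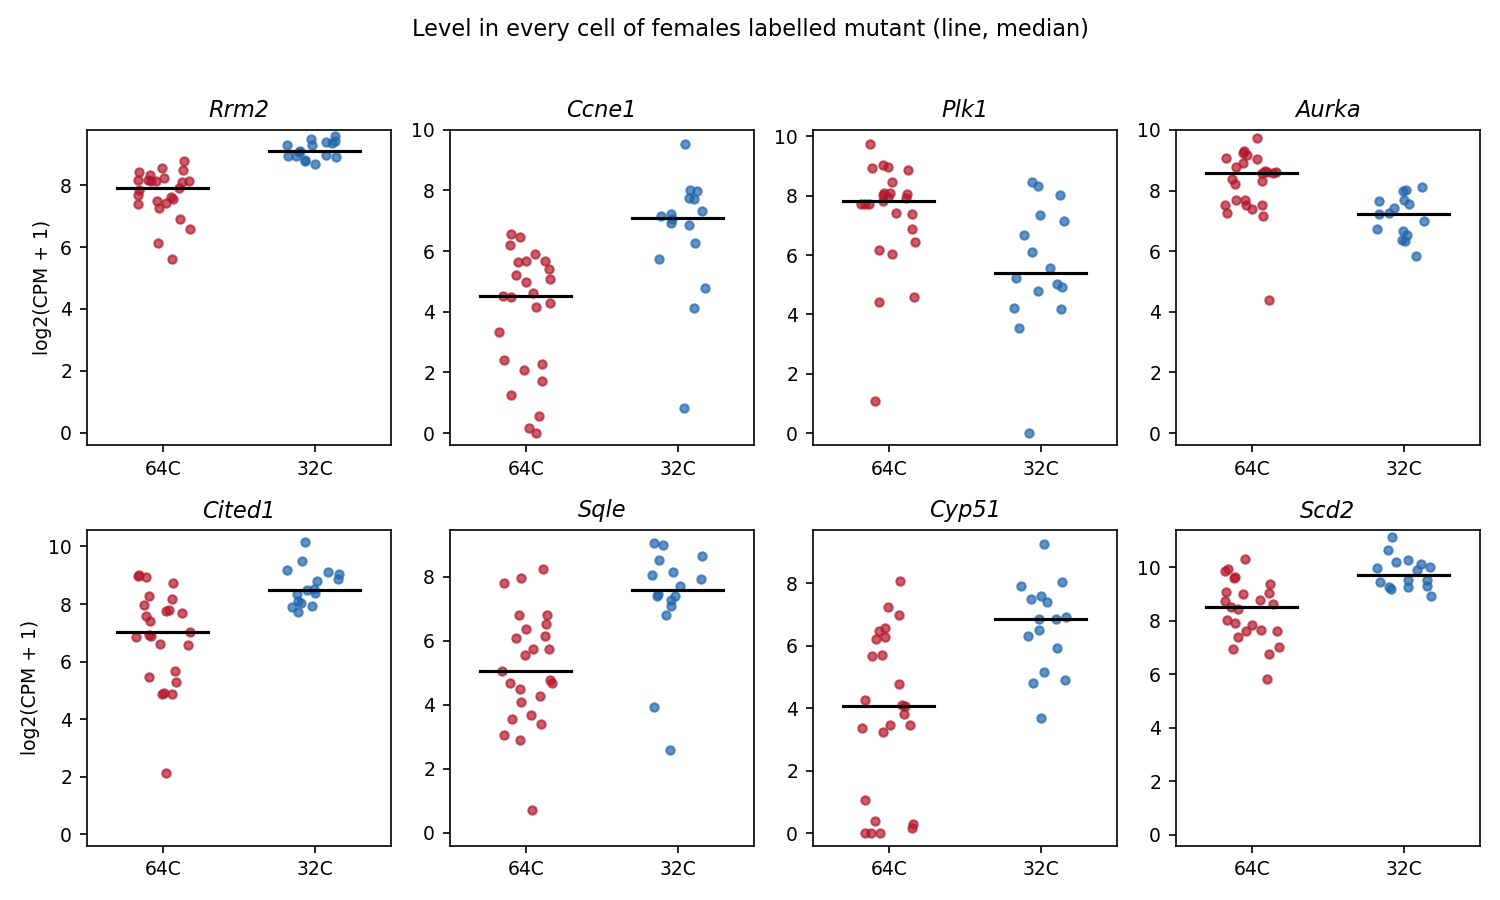
Level (log2(CPM + 1)) of 8 genes in every cell of females labelled mutant, with 64C left and 32C right and a line at the median. Rrm2 overlaps only between 415 and 436 CPM, and Plk1 and Aurka have higher medians at 64C while the other 6 genes have lower ones.

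Tubb5, a beta-tubulin of the spindle and cytoskeleton, was among the genes past the rule the one with the smallest edgeR p. It had 88.0, 992 and 2606 CPM at 64C, against 188, 386 and 816 CPM at 32C (log2 change 1.53, SE 0.50, unadjusted p = 0.012, adjusted p = 1). Adh1, an alcohol dehydrogenase, and Ephx2, an epoxide hydrolase, had smaller p (0.0048 and 0.0062, edgeR adjusted p = 1) but were present in few cells. DESeq2 called both (adjusted p = 0.0028 for Adh1 and 0.0013 for Ephx2). Adh1 reached 10 CPM in 7 of 25 cells at 64C (highest 803 CPM) and in 0 of 16 at 32C (highest 1.68 CPM). The 7 cells are the 7 Krt8-rich cells of 64C, while the 4 Krt8-rich cells of 32C had at most 1.68 CPM. Ephx2 reached it in 8 of 25 cells (highest 220 CPM) and in 0 of 16 (highest 0.11 CPM). Its 8 cells, numbers 8, 12, 16, 65, 69, 70, 73 and 76, include none of the Krt8-rich cells and 5 of the 6 cells with at least 10 CPM of Fgf4.

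Lists of energy and stress genes had 0 to 2 members past the rule, beside the 4.75% lower and 2.61% higher over all genes. Ldhb (2.19 against 15.4 CPM), a lactate dehydrogenase subunit, and Slc16a1 (10.2 against 42.7 CPM), the lactate transporter, were the 2 of 19 glycolysis genes past the rule, both lower. The median of that list was 0.31, and Ldhb was not past the rule without both sets of cells (2.85 against 7.88 CPM). Cox5a, a cytochrome oxidase subunit, was 228 against 581 CPM, the 1 oxidative phosphorylation gene of 25 past the rule. Gadd45b, a stress-induced gene, was 3.74 against 22.7 CPM, the 1 of 9 in its list, with 2 of 9 lower without both sets of cells. Ribosomal protein genes, FGF and ERK genes and DNA methylation genes had 0 of 25, 0 of 19 and 0 of 11 past it, with medians of 0.12, -0.11 and 0.28. Of 20 cavitation and transport genes 2 were higher, Aqp8 and the desmosomal cadherin Dsg2 (42.2 against 15.3 CPM), and 4 without both sets. Hippo pathway genes had 1 of 18 lower, polycomb genes 1 of 20, p53 and apoptosis genes 1 of 21, cleavage-stage genes 2 of 9 and histone variants 2 of 14, and none of these 5 lists had a member higher. Counts this small do not set any of these lists apart from all genes. H2afx, the histone variant of the DNA damage response, was 122 against 284 CPM.

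Among genes past the rule in mutant females, 16 were past it in the same direction in all 6 pairs, 3 higher and 13 lower. In the other pairs 20% and 11.6% of genes were past the rule, higher and lower, in males labelled mutant, 12.6% and 13.6% in wild-type CB females, 25.9% and 17.5% in wild-type CB males, 9.68% and 15.4% in BC females and 9.89% and 21.5% in BC males. Those groups hold 2 to 9 cells each, against 25 and 16 here. Of the 269 higher genes 47 had the same direction in all 5 other pairs (17.5%) and of the 490 lower ones 82 (16.7%), against 9.05% and 9.49% of all genes that were higher or lower. Timd2, a ferritin receptor of the mouse, had 6.35, 215 and 1819 CPM at 64C, against 212, 1303 and 3124 CPM at 32C. Its log2 ratio was -1.79 in mutant females and -4.13 to -1.21 in the other pairs. Pemt, the methyltransferase that makes phosphatidylcholine, had 1.93, 100 and 581 CPM at 64C, against 105, 412 and 796 CPM at 32C. Its log2 ratio was -1.40 in mutant females, closer to 0 than the -4.81 to -2.15 of the other pairs, and the test of that difference gave p = 0.026 (edgeR, adjusted p = 1). Gpd1l, a glycerol-3-phosphate dehydrogenase, was 243 against 614 CPM, and Pdxk, the pyridoxal kinase, 117 against 322 CPM. Glrx, glutaredoxin, was the most abundant of the higher ones, at 567 against 257 CPM, and Capg, an actin-capping protein, stood at 20.5 against 1.87 CPM. Tmem126a, a mitochondrial membrane protein gene, was the other, at 21.5 against 6.52 CPM.

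Over the 5 other pairs together edgeR called 6 of 15463 genes higher at 64C (0.0388%) and 5 lower (0.0323%). Of these 11, Timd2, Pemt, Pdxk, Gpd1l and Glrx were past the rule in mutant females too. The remaining 6 were not. AA467197 was 578 CPM at 64C and 457 CPM at 32C in mutant females, while its log2 ratio was 1.73 to 2.62 in the other pairs and 0.34 here. Lgals9, a galectin, was 59.7 against 113 CPM. Because the 11 genes were selected in the other pairs, their ratios there are no independent measure.

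By size alone the other genes with the highest ratios at 64C were Myod1, the muscle transcription factor (20.2 against 0.35 CPM), Slc7a3, a cationic amino acid transporter on the X (36.5 against 0.73 CPM), and Kif20b, a kinesin of cell division (5.56 against 0.21 CPM). Myod1, at 15.9 against 0.54 CPM without both sets of cells, and Lama1 were then not past the rule, while the other 13 of the 15 were. Slc7a3 reached 10 CPM in 12 of 25 cells at 64C, with 290 CPM in cell 70 and 188 CPM in cell 73, and in 1 of 16 at 32C. Wbp5, also on the X, was 133 against 14.7 CPM. It was 299.5 to 673 CPM in 6 of the 7 Krt8-rich cells at 64C and 187 CPM in cell 51, 1 of the 4 such cells at 32C. The other 10 of the 15 were Ntpcr, Gstm3, Cryge, Pomt1, Capg, Unc93a, B3gnt7, Tnfaip8, Tigd2 and 4930470H14Rik, at 4.06 to 27.7 CPM at 64C and 0.29 to 2.78 CPM at 32C.

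The lower side of that ranking held several genes of the oocyte. Of the 15 genes with the lowest ratios, Bcl2l10 (1.28 against 80.8 CPM), Obox2 (0.65 against 36.2 CPM), Gdf9 (1.56 against 62.9 CPM) and H1foo (2.52 against 74.5 CPM) are oocyte genes. Without 32C cells 42 to 47 the log2 ratio of Bcl2l10 was 1.36 in place of -5.98 and that of Obox2 0.66 in place of -5.79. Gdf9 had -0.10 in place of -5.34, and H1foo -0.33 in place of -4.88. Itpr2 and Mid1 were not past the rule without those 6 cells either, while the other 9 of the 15 were. The oocyte list had 4 of 19 genes lower and a median of -3.61, and 1 of 11 and -0.33 without those 6 cells. Slc25a41, a mitochondrial carrier, was 0.03 against 18.1 CPM, with at most 0.32 CPM in any cell at 64C and at least 10 CPM in 6 of 16 cells at 32C. Cck, the cholecystokinin hormone gene (0.77 against 22.6 CPM), and Fam57b (0.57 against 12.6 CPM) were lower in all 5 other pairs as well. The others were Ppp1r14a, Nexn, Itpr2, Fbxl15, Tmem203, Mid1, Hist1h2ai and Dpep3, at 0.12 to 1.20 CPM at 64C and 1.88 to 17.9 CPM at 32C.

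Xist was at or near 0 at both stages. At 64C 3 of 25 cells had at least 1 CPM (8.51 CPM in cell 50, 8.14 in cell 55 and 2.29 in cell 34), and at 32C 0 of 16 cells (interval 0 to 20.6%). In cell 55, the single cell with both at least 10 reads of Xist and a deposited share, Xist came wholly from the maternal allele (paternal share 0). At least 10 CPM of Xist was found in 0 of the 41 cells. Near Xist, Rlim, a ubiquitin ligase that activates Xist, had a paternal share of 0.466 ± 0.192 at 64C (SD over 25 cells) and 0.477 ± 0.176 at 32C (16 cells), against 0.094 and 0.058 in wild-type CB females. Reads counted to Tsix, the antisense partner of Xist, were wholly paternal in 4 cells at 64C and 3 at 32C. No source used here says whether counting used the strand, so Tsix and Xist reads cannot be told apart. Jpx and Ftx, noncoding genes of the X-inactivation centre, had shares of 1.0 in 1 cell and 0.833 in 6 cells at 64C, and of 1.0 in 7 and in 6 cells at 32C.

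Both X chromosomes of mutant females were read about equally at both stages. The mean paternal share over X-linked genes had a median of 0.495 over cells at 64C (0.453 to 0.545) and 0.505 at 32C (0.482 to 0.545). Wild-type CB females had 0.162 at 64C and 0.35 at 32C, and BC females 0.183 and 0.270. Every mutant cell lay above every wild-type cell. Males labelled mutant had 0.010 and 0.011, the background of the measure. Autosomal shares in mutant females were 0.505 at 64C and 0.514 at 32C. Without both sets of cells the X shares were 0.506 and 0.503.

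**Figure D5:**
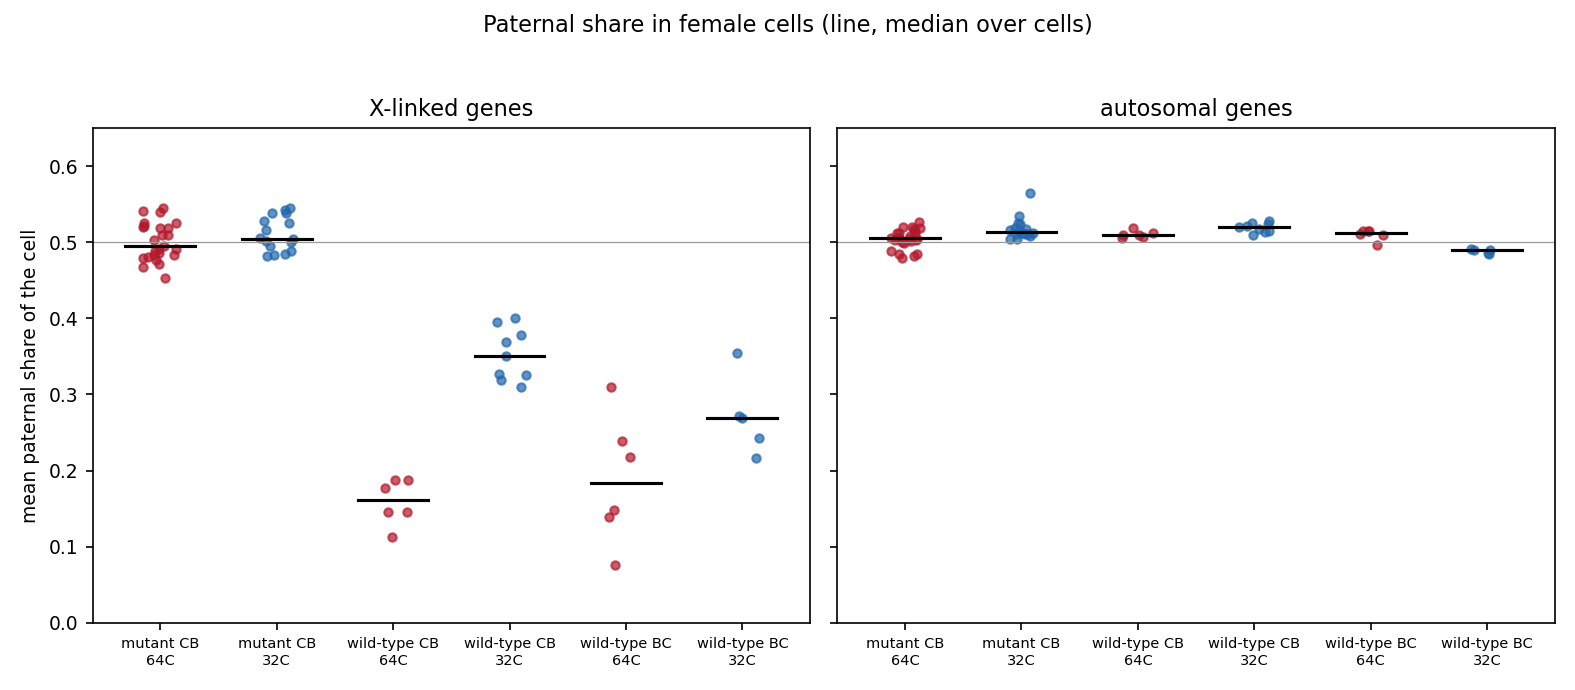
Mean paternal share of each female cell (y axis) over X-linked genes (left) and autosomal genes (right), for mutant CB, wild-type CB and wild-type BC females with 64C (red) left of 32C (blue) and a line at the median. Mutant cells stay between 0.453 and 0.545 on the X at both stages, and wild-type medians lie at 0.162 and 0.35 (CB) and 0.183 and 0.270 (BC).

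Gene by gene, 173 X-linked genes had at least 10 reads in at least 5 cells of each stage. Their median share was 0.493 at 64C and 0.50 at 32C, and 132 (76.3%) and 127 (73.4%) lay between 0.35 and 0.65. Autosomes had 76.5% and 70.6% of 6303 genes in that range. The median difference, 64C minus 32C, was -0.0058 on the X, with 90 of 173 genes lower at 64C. Over the 110 genes also measured in wild-type CB females it was -0.0076 in mutant females (60 lower), against -0.162 in wild-type CB females (95 lower). Within single cells the alleles were often far from equal: with at least 50 reads, 19.1% of X-linked values at 64C and 20.4% at 32C were at most 0.1, and 19.4% and 21.4% at least 0.9. The autosomes of the same cells had 18.5% and 19.6% at most 0.1, and 19.2% and 22.4% at least 0.9. In wild-type CB females 64.9% of X-linked values at 64C and 33.7% at 32C were at most 0.1.

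The genes whose paternal share was lowest at 64C relative to 32C were Gk, glycerol kinase, at 0.036 ± 0.068 at 64C (SD over 8 cells) and 0.621 ± 0.459 at 32C (6 cells), and Hsd17b10, a mitochondrial dehydrogenase, at 0.301 ± 0.265 (18 cells) and 0.734 ± 0.282 (11 cells). Hmgb3, Pim2, Phf6, Phf8, Dlg3, Tsx, Xiap and Amot came next, with differences of -0.391 to -0.216. The genes whose share was highest at 64C relative to 32C were Nudt11, with 0.742 ± 0.325 (6 cells) and 0.075 ± 0.136 (5 cells), and Bhlhb9, which was wholly paternal in 10 cells at 64C and at 0.414 ± 0.491 in 6 cells at 32C. Fmr1, Klf8, 1700080O16Rik, Apex2, Elk1, Timp1 and Ofd1 followed, with differences of 0.406 to 0.219. These are among the extremes of 173 genes, with SDs over cells as large as many of the differences, and the number of reads behind a share is unknown. Of the genes known to escape inactivation, Kdm5c had 0.385 ± 0.252 at 64C (23 cells) and 0.539 ± 0.288 at 32C (15 cells), Kdm6a 0.369 ± 0.315 (22) and 0.540 ± 0.346 (14), and Eif2s3x 0.639 ± 0.218 (24) and 0.517 ± 0.271 (15). Their shares overlap between the stages.

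Counts of X-linked genes were 5.67% of autosomal counts at 64C (median of cells, 4.55 to 7.38%) and 5.23% at 32C (4.46 to 5.87%). Wild-type CB females had 3.58% and 4.37%, BC females 3.49% and 3.35%, and males labelled mutant 2.73% and 2.57%. Between the stages the median log2 ratio on the X was above that on the autosomes by 0.03 in mutant females, against 0.06 in males labelled mutant, -0.03 in wild-type CB females, 0 in wild-type CB males and BC females and 0.02 in BC males. This value depended on the genes and the pseudocount: in mutant females it was 0.129 over genes of at least 100 CPM and 0.0809 with a pseudocount of 0.1. A larger part of the X was past the rule and higher: 17 of 354 genes (4.8%), against 2.53% of autosomal genes, and 10 (2.83%) were lower, against 4.82%. Without both sets of cells 25 of 357 X-linked genes (7%) were higher. Among the abundant genes, Slc25a5, the ATP/ADP carrier of mitochondria, was 7476 against 5841 CPM, with 2599 to 15223 CPM at 64C and 4456 to 9486 CPM at 32C. Uba1, the enzyme that starts ubiquitination, was 1370 against 849 CPM, and the ribosomal protein genes Rpl10 (5928 against 4740 CPM) and Rps4x (5985 against 4890 CPM) stood in the same order. None of these 4 was past the rule. They were the X-linked genes with the largest rise in CPM, and other abundant ones were lower at 64C. Hprt was 1616 against 1804 CPM, Sat1 1332 against 1531 CPM and Ddx3x 424 against 602 CPM. Timp1, a metalloproteinase inhibitor, was the 1 of 45 X housekeeping genes past it (34.1 against 11.2 CPM), and Mid1, a microtubule-binding ubiquitin ligase, the 1 of 11 escape genes (0.55 against 8.58 CPM). Mid1 was 0.66 against 1.88 CPM and not past the rule without both sets of cells, and neither was Timp1 (30.3 against 15.7 CPM).

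Chromosomes 4 and 18 had raised shares of genes that were higher at 64C, with 26 of 698 (3.73%) and 13 of 256 (5.08%). Without cells 33 to 37 these were 1.58% and 3.08%, and the X had 4.70%. Of 28 listed paternally expressed imprinted genes, 9 had shares in at least 5 cells of each stage, and all 9 had at least 0.85 at both. Of 21 maternally expressed ones 5 did, with shares of 0.212 to 0.765 at 64C and 0.132 to 0.817 at 32C, and 0 of the 5 had at most 0.15 at both. Slc38a4, an amino acid transporter, Sfmbt2, a polycomb-related gene, Gab1, a signalling adaptor, and Smoc1, a matrix protein gene, had paternal shares of 0.999, 0.999, 0.981 and 0.997 at 64C and of 1.0, 1.0, 0.987 and 0.997 at 32C. Jade1, a subunit of a histone acetyltransferase complex, had 0.914 ± 0.135 at 64C (15 cells) and 1.0 at 32C (12 cells). Meg3, a maternally expressed noncoding RNA, was past the rule, at 33.7 CPM at 64C and 5.42 CPM at 32C, with up to 240 CPM in cell 12 and a paternal share of 0.0005 at 64C (13 cells) and 0 at 32C (4 cells). Without both sets it was 26.1 against 6.71 CPM and not past the rule. Impact, a paternally expressed regulator of translation, was 32.3 against 87.3 CPM, and 31.2 against 92.5 CPM without both sets, with shares of 0.988 at 64C and 0.893 at 32C.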

How the data were processed

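The authors deposited raw read counts per gene and cell (24499 genes), made with TopHat2 2.1.0, HTSeq 0.6.1 and SAMtools on build mm10, per the submitters' processing notes, and an allelic fraction per gene and cell (15253 genes, 514 X-linked). The fraction was read as the paternal share. A depth-scaled signal that the authors deposited (20711 genes) served as an alternative. The depth behind a fraction is unknown. Reads carry no molecular identifiers. The binomial intervals concern the sampling of cells, taken as independent, and cover no difference between embryos.

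Counts were summed over the cells of each stage in 6 pairs and tested with edgeR 4.0.16 (limma 3.58.1, DESeq2 1.42.0, R 4.3.3): pair, stage and stage by mutant female as terms, TMM, filterByExpr, Benjamini-Hochberg adjusted p under 0.05, 4 residual degrees of freedom. The p-values measure the spread between these sums, which may be technical. The size rule covered genes with at least 1 CPM in 25% of the cells of either stage, with a floor of 3 counts. A cell's share is the mean over genes with at least 10 reads. The fit was also run on simulated data. How many changed genes it recovered is not given here, so that run says nothing about the lack of edgeR calls.

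Named were the 15 genes of largest ratio past the size rule in each direction (edgeR called none), the 10 with the smallest p of the difference between pairs, the 10 X-linked genes with the largest rise and fall of the share, and members of the gene lists. Genes past the rule in every pair, those called in the other pairs, Tubb5, Adh1, Ephx2, Msmo1 and the abundant X-linked genes were chosen after their values were seen, as was leaving out the cells that stood apart. The members and gene lists were chosen with earlier results of these data known. Labels name no sequencing batch. Values of some genes are not reported here.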

Additional observations from a re-analysis of the deposited data

Results flagged for a closer look

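Among the named genes, 4 had a log2 ratio of 64C over 32C of one sign in females labelled mutant and of the opposite sign in each of the 5 other pairs. Over all 10317 genes this held for 149 that were higher at 64C and 231 that were lower, of which 2 and 9 were past the size rule. Txnip, Hspa8 and P4ha3 were named because the p of their difference from the other pairs was small. Their opposite signs and that p are therefore no independent evidence. Groups with fewer than 3 counts entered these ratios at a floor of 3 counts. For Txnip, which encodes a thioredoxin-binding protein, it was -0.66 (2.71 against 4.28 CPM), against 2.81 to 10.18 in the other pairs, whose 32C groups had at most 0.03 CPM. For Hspa8, the constitutive heat-shock protein, it was 0.50 (12069 against 8528 CPM), against -1.38 to -0.37. For Mid1 it was -3.97, against 0.66 to 6.66, and without both sets of cells it was -1.51. For P4ha3, a prolyl hydroxylase subunit gene, it was 1.06 (8.61 against 4.14 CPM), against -8.97 to -4.10. The difference itself was tested with edgeR: unadjusted p = 0.0012 for Txnip, 0.0103 for Hspa8, 0.0922 for Mid1 and 0.0255 for P4ha3, with adjusted p = 1 for each. DESeq2 called the difference for Txnip (adjusted p = 0.000206) and P4ha3 (adjusted p = 0.0216) and not for Hspa8 and Mid1.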

How the results depend on the processing

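The edgeR counts of 0 for the stage change and for its difference from the other pairs were 0 in every alternative but one, leaving out each other pair in turn (0 to 0) included: the DESeq2 Wald test called 15 higher and 1 lower for the stage and 12 and 3 for the difference. The 269 and 490 genes past the size rule were 15 and 31 with a size of at least 2, and 103 and 242 with a pseudocount of 5. The X minus autosome shift of 0.0306 was 0.0809 with a pseudocount of 0.1 and 0.129 over genes of at least 100 CPM. Bcl2l10 and Obox2 had log2 ratios of 1.36 and 0.66 without 32C cells 42 to 47, and of 1.76 and 1.07 without both sets. The cause was not tested. Other alternatives moved no main value past these limits. No paired analysis was possible because the cell numbers of the groups mark no shared embryo and each stage is 1 sum of cells. The lone pair has no spread of its own, and cells of a stage may share an embryo.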

Other observations

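A few genes found almost wholly in cells of 1 stage belong to no list and did not pass the size rule. Oc90, an otoconial protein gene, reached 10 CPM in 9 of 25 cells at 64C (11.2 CPM over all cells, highest 74.2 CPM) and is at 0 in the 16 cells at 32C. Sytl3, a synaptotagmin-like gene, reached it in 7 of 25 cells (20.1 CPM, highest 161 CPM), with 0 reads at 32C. Tnfsf13b, a B-cell cytokine, was 0.15 CPM at 64C, with at most 0.49 CPM in a cell, against 14.9 CPM at 32C, where 4 of 16 cells had at least 10 CPM. Each had an unadjusted edgeR p under 0.05 and an adjusted p = 1. DESeq2 called Oc90 (adjusted p = 0.0354) and Sytl3 (adjusted p = 0.0312), and the difference from the other pairs for Oc90 (adjusted p = 0.000731). In wild-type CB females Oc90 was 0.57 CPM at 64C and 23.1 CPM at 32C.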
